A study of Mus musculus with 6 samples.

Results

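The multidomain members of the Bcl-2 family and the AIF family were examined in the ganglion cell layer of mouse retina after injury of the optic nerve. The genes were Bcl2, Bcl2l1, Bcl2l2, Mcl1, Bcl2l10, Bak1, Bok, Aifm1, Aifm2 and Aifm3, and their members on the array were all probe sets that the platform annotation gives one of these symbols alone. A probe set is the group of short probes with which the array reads 1 transcript. The 10 genes, of 18193 with a single-symbol probe set, had 29 probe sets among 45101 in all, and 24 of the 29 had a mean intensity of at least 40 over the arrays and were tested, with at least 1 for each of the 10 genes. The samples were 3 eyes taken 6 hrs after the optic nerve was crushed behind the globe, and 3 control eyes, which were the uninjured contralateral eyes. The mice were male C57BL/6J, their age is not given in the sources used here, and no transgene was part of the design. About 6000 cells of the ganglion cell layer were cut from frozen sections of each eye by laser capture, which gave about 60 ng of RNA, and the RNA was amplified before it was hybridized to 1 array per eye. RNA of RGCs (retinal ganglion cells) is thus mixed with that of glia, amacrine cells and vessels from the same layer, so that fewer cells of a type and less RNA per cell cannot be told apart.

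Proteins of the Bcl-2 family decide whether the outer membrane of the mitochondrion stays closed. The antiapoptotic members (Bcl-2, Bcl-xL, Bcl-w and Mcl-1) bind and hold the effectors such as Bak, which otherwise assemble into pores that let cytochrome c into the cytosol, and short BH3-only proteins set off this step by occupying the antiapoptotic members. AIF, the product of Aifm1, is a flavoprotein of the mitochondrial intermembrane space that supports the respiratory chain and can move to the nucleus in a form of death that does not need caspases. RGCs die by an intrinsic, mitochondrial route in the days after their axons are cut, which is why this gene family is often measured in optic nerve injury.

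Values are linear array intensities in arbitrary units. They depend on the probes, so a level of one probe set cannot be set against that of another. Differences were tested with limma on log2 values over all 33169 probe sets of sufficient intensity, with the eye number as a pair, and a log2 fold change above 0 means higher after crush. No probe set of the array passed an adjusted p under 0.05 from limma, and the lowest adjusted p was 0.642, while 2546 of 33169 (7.68%) passed an unadjusted p under 0.05, 5.16% higher and 2.51% lower. These were 1713 higher and 833 lower, a split that was 1439 and 1652 with array medians made equal and 1783 and 1245 after quantile normalization. With an intensity trend and robust prior, 1 probe set passed the adjusted threshold. "Nominal" below refers to the unadjusted threshold of 0.05. Of the 24 probe sets of the family, 2 (8.33%) were nominally higher and 0 nominally lower, a share close to that of the array. The median log2 fold change was 0.04 over the family and -0.01 over all tested probe sets. With array medians made equal these were -0.0026 and -0.05, and without pair 3 they were -0.04 and -0.04, so the family as a whole had no settled direction. The arrays of crush eye 2 and crush eye 3 stood apart from the rest. On the first of them 1331 probe sets lay below every other array by more than 1 on the log2 scale (4 to 57 on any other array), and on the second 255 lay above every other array by that margin (2 to 27 elsewhere).

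**Figure D1:**
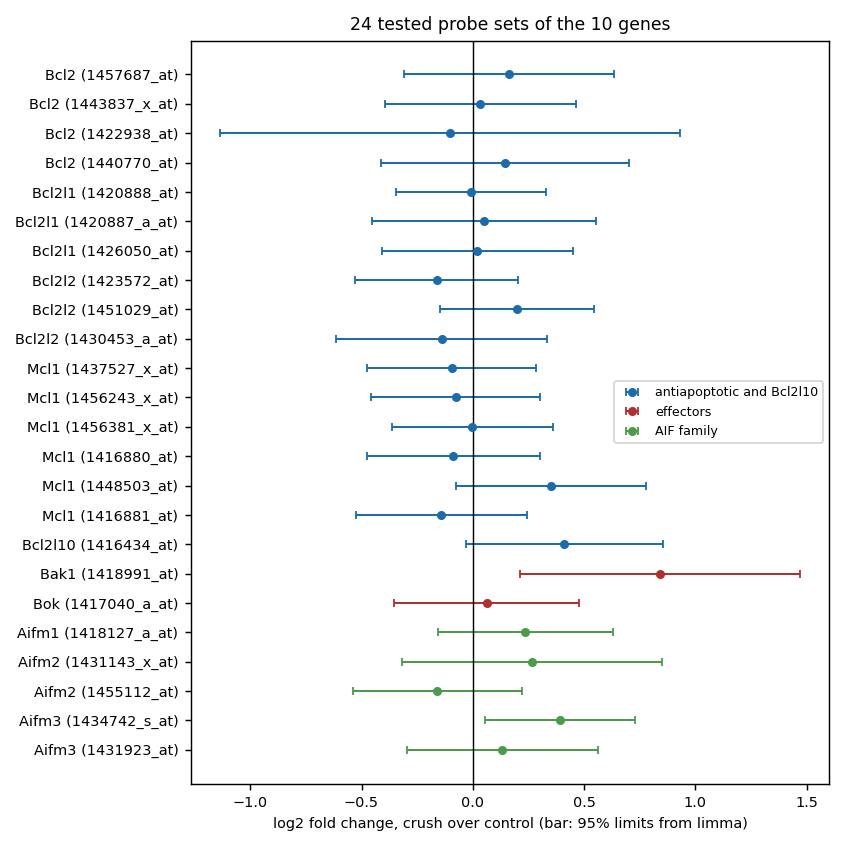
Log2 fold change of crush over control for the 24 tested probe sets of the 10 genes, each point with its 95% limits from limma, 3 eyes per group. The limits of the Bak1 probe set and of the brighter Aifm3 probe set lie above 0, and all others include 0.

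Among the effectors, Bak1 had the largest difference of the family. Bak is a pore former of the outer mitochondrial membrane. Its main probe set (1418991_at) read 167, 205 and 154 in crush eyes 1 to 3 and 113, 71.4 and 113 in control eyes 1 to 3. All crushed eyes lay above all control eyes, which held for 7.29% of tested probe sets. Crushed eyes averaged 175 ± 26.5 and control eyes 99.0 ± 23.9 (SD, 3 of each), which gave a log2 fold change of 0.84 with a standard error of 0.25 and 95% limits of 0.21 and 1.47 (adjusted p = 0.642 from limma, nominally higher). Pairs 1 to 3 differed by 0.56, 1.52 and 0.44 on the log2 scale, and the largest part came from pair 2, where the control eye was the lowest of the 6 arrays and the crushed eye the highest. Without pair 2 the log2 fold change was 0.50 and still nominally higher. The signal was dim, and a link of this to the calls was not tested. The nominal call was kept in 15 of 18 alternatives, among them the fit without pairing (unadjusted p = 0.0069 from limma). It was lost in 3, the first with a floor of 64 in place of 16 (unadjusted p = 0.061 from limma). It was also lost with no filter on intensity (unadjusted p = 0.0792 from limma). The methods' paired test on linear intensities gave an unadjusted p of 0.119. No value of this probe set was under 64. With that floor or with no filter the log2 fold change stayed at 0.84, with standard errors of 0.28 and 0.30. The group difference of 76.0 units fell short of the 80 units that the study's thresholds ask for. A further probe set of Bak1 (1425716_s_at) was at 1 to 17.6 on all arrays and gave no usable signal.

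Bok, the other effector measured here, is a relative of Bak that resides largely on the endoplasmic reticulum and is not held by the antiapoptotic members in the same way. Its single probe set (1417040_a_at) read 1498, 1531 and 1589 in crush eyes 1 to 3 and 1343, 1267 and 1884 in control eyes 1 to 3. The crushed eyes lay close together, and the control eyes spanned both sides of them. On the log2 scale the fold change was 0.06, with 95% limits of -0.35 and 0.48 (adjusted p = 0.93 from limma), higher in pairs 1 and 2 and lower in pair 3. A Bok transcript change of 1 or more on the log2 scale in either direction lies outside these limits. Bax, the best known effector, was not analysed here.

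**Figure D2:**
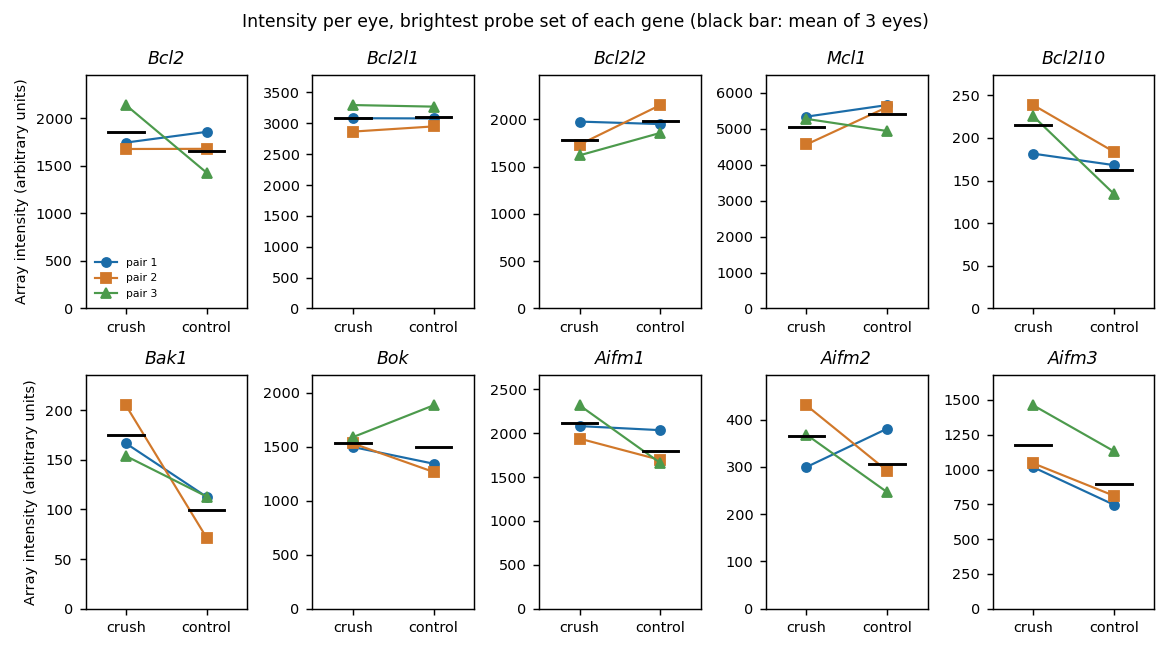
Array intensity in arbitrary units of the brightest probe set of each gene, crush on the left and control on the right of each panel. Lines join the eyes of a pair, symbols mark pairs 1 to 3 and black bars the group means. Bcl2l10, Bak1, Aifm1 and Aifm3 are higher in the crushed eye of every pair, whereas the Bcl2l1 lines are nearly flat.

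Aifm3 was the AIF family member with a nominal difference. It encodes an AIF-like oxidoreductase with a Rieske domain, and its forced expression has been reported to cause apoptosis. The study itself lists this gene among those it selected on these samples, so its direction is not independent evidence. The brighter probe set (1434742_s_at) read 1016, 1044 and 1461 in crush eyes 1 to 3, and 747, 812 and 1131 in control eyes 1 to 3. Each crushed eye was above the control eye of the same number, although the groups overlapped because control eye 3 exceeded crush eyes 1 and 2. Crushed eyes averaged 1174 ± 249 and control eyes 896 ± 206 (SD, 3 of each), which gave a log2 fold change of 0.39 with a standard error of 0.13 and 95% limits of 0.05 and 0.73 (adjusted p = 0.642 from limma, nominally higher). The differences within pairs were alike, at 0.45, 0.36 and 0.37. This was the only probe set of the family to meet the study's criteria with limma's p in place of its paired t-test (unadjusted p under 0.05, ratio over 1.2 and difference over 80), which 2.58% of tested probe sets met in the upward direction and 0.543% in the downward direction. The nominal call was kept in the methods' paired test on linear intensities (unadjusted p = 0.0101). It was also kept with no filter on intensity (unadjusted p = 0.0018 from limma), at an unchanged log2 fold change. In limma at the main settings the nominal call depended on pairing. Without the pairing the same log2 fold change of 0.39 had an unadjusted p of 0.119 from limma, and after the medians of the arrays were made equal it was 0.35 with an unadjusted p of 0.0578 from limma. Without pair 1, pair 2 or pair 3 it was 0.37, 0.41 and 0.40, nominal in none of these. The dimmer Aifm3 probe set (1431923_at) read 78.1, 79.7 and 73.2 in crush eyes and 60.4, 68.3 and 84.1 in control eyes, and had a log2 fold change of 0.13 (95% limits -0.30 and 0.56), with pair 3 in the opposite direction.

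Aifm1, which encodes AIF itself, had 1 probe set (1418127_a_at), at 2080, 1938 and 2316 in crush eyes 1 to 3, against 2034, 1694 and 1660 in control eyes 1 to 3. The crushed eye was the higher in all 3 pairs, but by very little in pair 1, and the groups overlapped. This came to a log2 fold change of 0.24 with a standard error of 0.16 and 95% limits of -0.16 and 0.63 (adjusted p = 0.691 from limma), and without pair 3, which holds crush eye 3, it was 0.11. Aifm2 encodes FSP1, an enzyme that regenerates reduced coenzyme Q and protects membranes from lipid peroxidation in ferroptosis. Its brightest probe set (1431143_x_at) read 299, 430 and 368 in crush eyes and 381, 292 and 246 in control eyes, lower after crush in pair 1 and higher in pairs 2 and 3, with a log2 fold change of 0.26 (95% limits -0.32 and 0.85). Without pair 1 it was 0.57 and nominally higher, and without pair 2 or pair 3 it was 0.12 and 0.11. The letter x in its name marks probes that can also match other sequences. Another Aifm2 probe set (1455112_at) had -0.16, and the remaining one (1431142_s_at) was at 3.59 to 26.3 on all arrays and was not tested. The AIF family as a whole had 4 of 5 tested probe sets above 0 and a median of 0.24, where 48.9% of all tested probe sets were above 0, with 1 below 0 (51.1% of all).

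At the main settings the antiapoptotic genes, counting Bcl2l10, had no nominal change on any of 17 tested probe sets. Of these, 8 were above 0 and 9 below, with a median log2 fold change of -0.0028. Over all tested probe sets 7.68% were nominal and 48.9% were above 0, so 17 probe sets are too few to set this part apart from the array. Bcl2, the founding member, is a survival factor for RGCs when overexpressed in mice. Its brightest probe set (1457687_at) read 1744, 1677 and 2139 in crush eyes 1 to 3, against 1857, 1679 and 1427 in control eyes 1 to 3. Crush eye 3 was the highest and control eye 3 the lowest of the 6 arrays, and the other eyes differed little within pairs. The log2 fold change of 0.16 (95% limits -0.31 and 0.64, adjusted p = 0.804 from limma) was -0.05 without pair 3. The other 3 tested probe sets of Bcl2 had 0.03 (1443837_x_at), -0.10 (1422938_at) and 0.14 (1440770_at), and without pair 3 the first and the last had -0.06 and -0.14. All 4 were higher in pair 3, the pair with crush eye 3. On the probe set 1422938_at crush eye 2 was the lowest of the 6 arrays, at 68.8 against 166 in control eye 2, and crush eye 3 the highest, at 265 against 145 in control eye 3. Its log2 fold change was therefore 0.48 without pair 2 and -0.59 without pair 3. It also had the widest limits of the family, -1.14 and 0.93, so that a fall of 1 on the log2 scale lay inside them. The fifth Bcl2 probe set (1437122_at) was at 24.2 to 43.5 and was not tested.

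Bcl2l1, which encodes Bcl-xL, the main antiapoptotic member of adult retinal neurons, differed very little between the groups. The probe set 1420888_at read 3083, 2866 and 3296 in crush eyes 1 to 3 and 3079, 2950 and 3270 in control eyes 1 to 3. Both eyes of each pair were nearly the same, with differences of 0.0018, -0.04 and 0.01. The resulting log2 fold change was -0.01, with 95% limits of -0.35 and 0.33 (adjusted p = 0.988 from limma), which correspond to folds of 0.787 and 1.25. The probe set 1426050_at had 0.02. On 1420887_a_at crush eye 2 was the lowest and crush eye 3 the highest of the 6 arrays, and its log2 fold change of 0.05 was 0.28 without pair 2 and -0.13 without pair 3. The remaining probe set (1426191_a_at) was at 1 to 15.1 on all arrays and was not tested.

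Bcl2l2, which encodes Bcl-w, had 2 bright probe sets that lay on opposite sides of 0. The probe set 1423572_at read 1976, 1733 and 1619 in crush eyes 1 to 3, against 1950, 2151 and 1857 in control eyes 1 to 3, a log2 fold change of -0.16 (95% limits -0.53 and 0.21). The probe set 1451029_at read 1026, 1232 and 1166 in crush eyes 1 to 3, against 962, 1059 and 960 in control eyes 1 to 3, a log2 fold change of 0.20 (95% limits -0.15 and 0.54). The second was higher in all 3 pairs and became nominal when the floor was 64 or when dim probe sets were kept in the fit, whereas the first was lower in pairs 2 and 3. The deposited table does not say which part of the transcript each reads. A dimmer probe set (1430453_a_at) had -0.14, with crush eye 2 the lowest and crush eye 3 the highest of the 6 arrays, and was at 0.02 without pair 2 and -0.34 without pair 3. The remaining probe set (1430454_x_at) was at 1 to 8.34 and was not tested.

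Mcl1 encodes a short-lived antiapoptotic protein that cells replace continuously and that many stress signals regulate. Of its 6 probe sets, all tested, 5 were below 0 and 1 above. The brightest (1437527_x_at) read 5337, 4562 and 5275 in crush eyes 1 to 3, against 5660, 5602 and 4937 in control eyes 1 to 3, lower after crush in pairs 1 and 2 and higher in pair 3, with crush eye 2 the lowest of the 6 arrays. Its log2 fold change was -0.10 with 95% limits of -0.47 and 0.28 (adjusted p = 0.865 from limma), and it was 0.0054 without pair 2. The probe sets 1456243_x_at, 1456381_x_at and 1416880_at had the same order of pairs, with log2 fold changes of -0.08, -0.0028 and -0.09. The exception was 1448503_at, at 1223, 1568 and 1284 in crush eyes 1 to 3, against 1200, 1153 and 856 in control eyes 1 to 3. All crushed eyes lay above all control eyes here. Crushed eyes averaged 1358 ± 184 and control eyes 1070 ± 186 (SD, 3 of each), which gave a log2 fold change of 0.35 with a standard error of 0.17 and 95% limits of -0.07 and 0.78 (adjusted p = 0.648 from limma, not nominal). The dimmest, 1416881_at, had -0.14. The probe sets of Mcl1 thus did not share a direction, and 3 of the bright ones carry the letter x for probes that can match other sequences.

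Bcl2l10, also called Diva or Boo in the mouse, has been described both as a survival and as a death protein and is grouped here with the antiapoptotic members by structure. Its probe set (1416434_at) was dim, at 181, 238 and 225 in crush eyes 1 to 3, against 168, 184 and 134 in control eyes 1 to 3. The crushed eye was higher in all 3 pairs, but crush eye 1 was just below control eye 2, so the groups overlapped. Crushed eyes averaged 215 ± 29.9 and control eyes 162 ± 25.3 (SD, 3 of each), which gave a log2 fold change of 0.41 with a standard error of 0.17 and 95% limits of -0.03 and 0.85 (adjusted p = 0.642 from limma, not nominal). The pair differences were 0.11, 0.38 and 0.75, the largest in pair 3, where the control eye was the lowest of all arrays. Without pair 3 the log2 fold change was 0.24. In unpaired fits it was 0.53 without crush eye 1 and 0.51 without control eye 2, nominal in both.

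**Figure D3:**
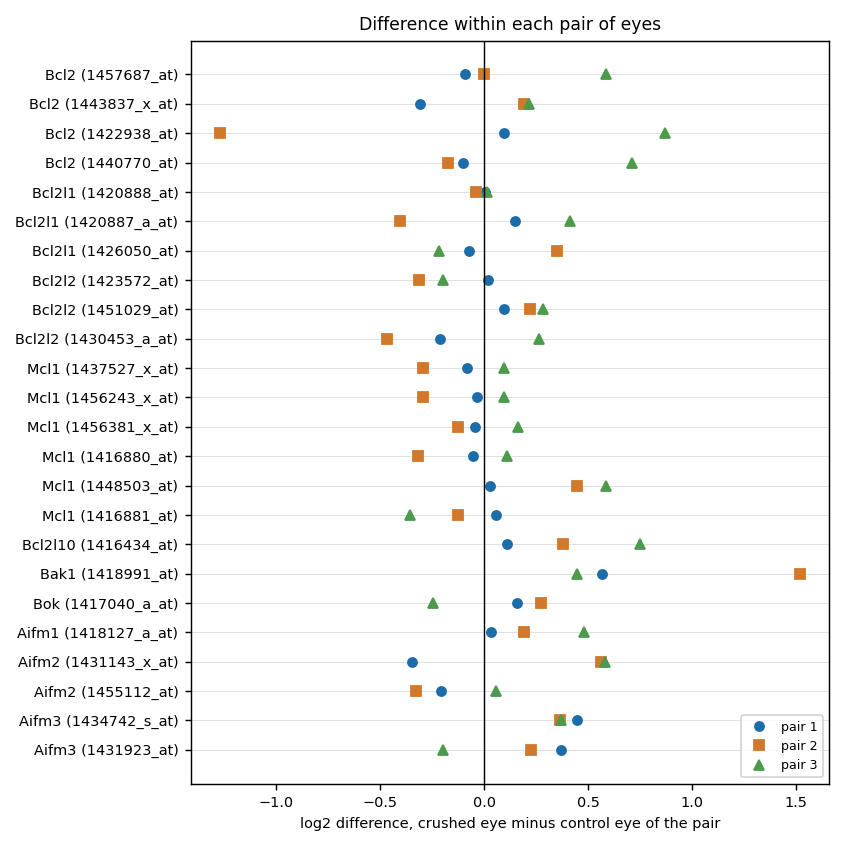
Log2 ratio of the crushed eye to the control eye of the same number in each of 3 pairs for the 24 tested probe sets. Bak1 in pair 2, at 1.52, lies farthest to the right, and the 4 Bcl2 probe sets are to the right of 0 in pair 3.

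Counted by pair, 6 of 24 probe sets (25.0%) were higher after crush in all 3 pairs, one each of Bcl2l2, Mcl1, Bcl2l10, Bak1, Aifm1 and Aifm3, and 0 of 24 were lower in all 3. Over all tested probe sets the shares were 17.6% and 14.2%. In pair 3 the median log2 difference of the family was 0.24, against 0.07 for all tested probe sets. In pair 1 it was 0.01, against 0.02, and in pair 2 it was -0.02, against -0.08. The groups did not overlap for 2 of 24 (8.33%), Bak1 and 1 probe set of Mcl1, both with crush above control, close to the 7.29% of the array, and 0 of 24 lay wholly below, where the array had 5.25%. Probe sets of a gene read the same RNA and are not independent. The 95% limits lay within -1 and 1 for 22 of 24 probe sets (86.2% of all tested), all except Bak1 and the dim Bcl2 probe set, so a change to 2-fold or more lay outside the limits for most of the family.

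The stretches before the start sites of Bak1 and Aifm3, the members with a nominal difference, are shown together with that of Bcl2, which had none. They are 250 bases each from RefSeq on the build GRCm38.p6, 5′ to 3′ on the gene's strand, for Bak1 chr17:27028628-27028877 on the minus strand, for Aifm3 chr16:17489427-17489676 on the plus strand and for Bcl2 chr1:106714291-106714540 on the minus strand. Capitals mark GC boxes (GGGCGG on either strand), the letters bound by factors of the Sp family.
Bak1: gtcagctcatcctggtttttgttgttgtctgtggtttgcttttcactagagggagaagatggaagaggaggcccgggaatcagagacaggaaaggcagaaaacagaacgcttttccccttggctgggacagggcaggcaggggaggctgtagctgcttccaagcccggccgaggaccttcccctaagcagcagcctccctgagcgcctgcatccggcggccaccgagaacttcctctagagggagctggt
Aifm3: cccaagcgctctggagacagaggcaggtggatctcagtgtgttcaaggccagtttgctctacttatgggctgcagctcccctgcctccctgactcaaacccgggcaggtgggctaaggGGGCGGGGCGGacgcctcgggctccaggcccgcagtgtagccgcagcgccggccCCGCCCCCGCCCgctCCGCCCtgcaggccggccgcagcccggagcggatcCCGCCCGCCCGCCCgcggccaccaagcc
Bcl2: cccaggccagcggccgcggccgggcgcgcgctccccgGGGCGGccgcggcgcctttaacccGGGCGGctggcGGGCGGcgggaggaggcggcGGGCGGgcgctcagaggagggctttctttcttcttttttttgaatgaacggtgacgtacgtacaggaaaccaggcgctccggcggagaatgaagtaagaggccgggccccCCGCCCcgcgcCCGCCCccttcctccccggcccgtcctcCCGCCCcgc
The Aifm3 window had 8 GC boxes, some of them overlapping, the Bcl2 window had 7 and the Bak1 window had 0. A relation of these counts to the nominal calls was not tested. GC boxes occurred in 32.7% of 32851 such windows and in 5 of 11 windows of the 9 members that could be matched, with Bcl2l10 not among them. The AP-1 letters TGANTCA were present once, in the Aifm3 window (6.75% of all windows), and the STAT letters TTCNNNGAA in 0 of 11 (7.02% of all windows). A match is a description of the letters only.

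The partners of the family were described from 8 lists with 55 genes, each gene by its brightest probe set, and 48 were tested. Bbc3, which encodes the BH3-only protein Puma, was the only one with a nominal difference (2.08% of 48, against 7.68% of the array). It read 114, 94.9 and 140 in crush eyes 1 to 3, against 71.8, 85.5 and 69.6 in control eyes 1 to 3, and all crushed eyes lay above all control eyes. The log2 fold change was 0.61 with a standard error of 0.20 (adjusted p = 0.642 from limma). Without pair 1 or pair 3 it was 0.58 and 0.41, neither nominal. The signal was dim, and a link of this to the calls was not tested. The nominal call was kept in 12 of 17 alternatives and lost in 5. As for Bak1, it was lost with a floor of 64, with no intensity filter and in the methods' test. That floor and the missing filter left the log2 fold change at 0.61, with standard errors of 0.21 and 0.22. The 6 BH3-only genes tested had 3 above 0 and 3 below, with a median of 0.12 and a range of -0.91 to 0.61. With the mean over all probe sets of each gene they had 2 above and 4 below and a median of -0.07, so this list had no settled direction. The 7 tested genes for proteins that interact with the family lay between -0.13 and 0.13, with a median of -0.09. The 10 genes of the intermembrane space and its pores, among them Cycs for cytochrome c, Diablo and the Vdac channels, lay between -0.16 and 0.15, with 2 above 0, 8 below and a median of -0.07. Most of this came from pair 2, which holds crush eye 2, with pair medians of 0.04, -0.25 and 0.01. Over the 48 genes, 7 were higher in all 3 pairs and 6 lower in all 3, where the array had 17.6% and 14.2%. The single genes that follow were picked after their values were seen and do not stand for their lists. Endog, the mitochondrial endonuclease, was higher in all 3 pairs (log2 fold change 0.15, not nominal), and Vdac2, a channel of the outer membrane, was lower in all 3 (-0.16, not nominal). Apaf1, the scaffold of the apoptosome, had -0.37 (not nominal), with -0.95 in pair 2, and the 4 tested genes of the apoptosome list had a median of -0.09, with -0.39 in pair 2. AIF's partners had a median of 0.06, with 0.19 for Parp1, whose overactivity releases AIF, and -0.06 for Chchd4, its import partner. The ferroptosis genes beside Aifm2 had a median of 0.04, with 0.04 for Gpx4, the glutathione peroxidase that removes lipid peroxides. Genes of Mcl1 turnover had a median of -0.08, with 0.03, -0.34 and 0.05 in pairs 1 to 3. Those of mitochondrial fusion and fission had a median of -0.03, which was 0.04 over the means of their probe sets, and no gene outside the BH3-only list was nominal.

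**Figure D4:**
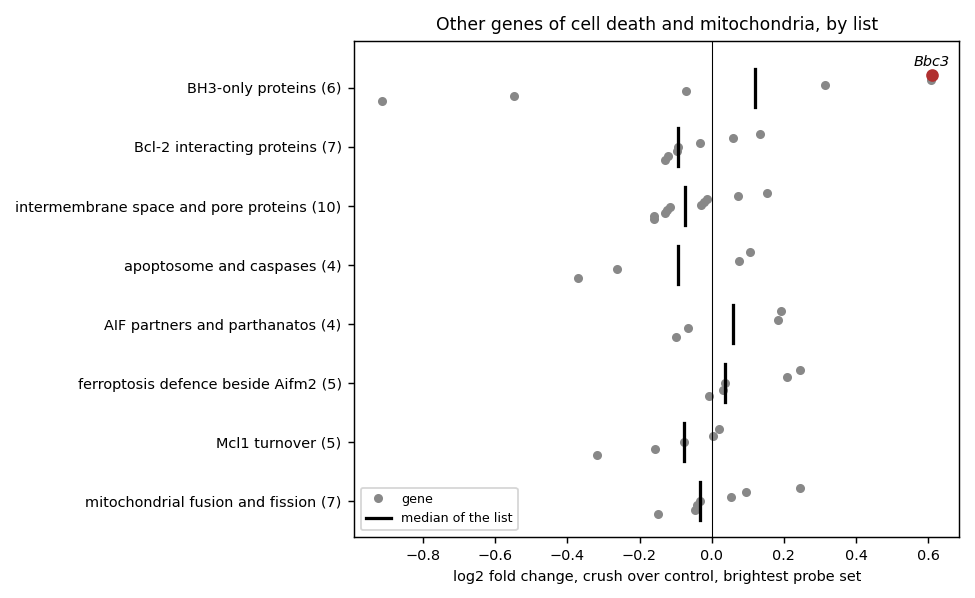
Log2 fold change of crush over control for 48 genes in 8 lists, each by its brightest probe set, with gene numbers beside the list names. Each point is a gene, the black line is the median of its list, and the red point is Bbc3 at 0.61, the only gene with a nominal difference.

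The captured tissue was checked against markers. All 8 measured RGC markers were bright, from 2163 for Rbpms to 13622 for Nefl, and their summed intensity was 45280 to 56271 in crushed eyes and 50204 to 52879 in control eyes, 3 higher and 5 lower after crush. Markers of other cells were also read, although all measured lens markers were under 16 on crush eye 2. Markers are counted as higher or lower by their mean log2 values, and sums are of linear intensities. The rod and cone markers summed to 30148 to 35809 after crush and 23070 to 38908 in controls with 5 of 5 higher on average, and their median difference was -0.06, 0.06 and 0.75 in pairs 1 to 3. Pair 3 held the highest difference for the brightest probe sets of Bcl2, Bcl2l1, Mcl1, Bcl2l10, Aifm1 and Aifm2. For Bak1 and Bok it was in pair 2, and for Aifm3 and Bcl2l2 in pair 1. A link to the rod and cone markers was not tested. The astrocyte markers Gfap and Pdgfra were both higher, with sums of 1475 to 2169 after crush and 1072 to 1422 in controls and pair medians of 0.68, 0.56 and 0.63. The study lists Pdgfra among the genes it selected on these samples, so its direction is not independent evidence. Muller cell markers were lower for 4 of 5 and summed to 21464 to 24045 after crush and 22498 to 25514 in controls. Bipolar cell markers were lower for 4 of 4, though Trpm1 was slightly higher by its linear mean (134 after crush and 130.3 in controls), amacrine cell markers lower for 5 of 6 and microglial markers higher for 4 of 5. Of the pigment epithelium list, 2 genes were higher and 1, Best1, was lower by log2 but level by its linear mean (66.9 after crush and 66.4 in controls). The sums of this list were 2154 to 7853 after crush and 761 to 1264 in controls. Most of each sum was Ttr, at 2332, 1733 and 7355 in crush eyes 1 to 3 and 508, 493 and 948 in control eyes 1 to 3. Rpe65, the defining gene of the list, was under 16 on all arrays. Lens crystallins varied most, with sums of 23 to 4101 after crush and 163 to 5551 in controls. The part of these cells in the values of Bak1, Aifm3 and Bcl2l10 was not tested.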

How the data were processed

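Gene expression was measured on 6 Affymetrix mouse arrays, 3 of eyes 6 hrs after crush and 3 of control eyes, 1 array per eye. The deposited values are linear intensities that the authors calculated in dChip with the PM/MM model and an invariant set normalization. Many low values equal 1.

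Of 45101 probe sets, 64 Affymetrix controls were left out. Values were floored at 16 before the log2 transformation. A mean intensity of 40 or more was required, which 33169 probe sets reached, and these were fitted by limma 3.58.1 (R 4.3.3). The eye number entered as a block, since the methods use a paired test. The Benjamini-Hochberg adjustment covered all 33169. Controls were contralateral eyes, and the eye numbers were taken to pair them. The deviations of same-numbered eyes from their group means correlated at 0.154, 0.125 and 0.297. Eyes of different number gave -0.264 to 0.131, the highest for crush eye 1 with control eye 2. These values do not settle the pairing, which is assumed, since the titles give only eye numbers. The calculation was tested on simulated data. Whether the 3 eyes of a group came from separate animals is not stated for each array. In the paired fits the p values measure the spread of the differences between same-numbered eyes, which limma moderates over all tested probe sets.

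Symbols came from the platform annotation. Every probe set of a member was named, and from each list the genes with a nominal difference, at most 4. The members and lists were chosen with earlier results of these data known. Gene lists were described by counts and medians, with no set test. The listed genes Bik, Pmaip1 and Bag3 had no probe set bright enough, and some other listed genes are not reported here. Alternatives covered pairing, floor, filter, scaling, prior, test and arrays. The precision is limited by the number of arrays. Between 6876 and 7219 probe sets per array were under the floor of 16.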

Additional observations from a re-analysis of the deposited data

How the results depend on the processing

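The count of 2 nominal members was 1 without the replicate block, 1 with median scaling, 1 in the methods' paired t-test and 3 after quantile normalization. With a floor of 64 or no intensity filter it stayed at 2, but with Bak1 lost and the Bcl2l2 probe set 1451029_at gained (unadjusted p = 0.0473 and 0.0405 from limma). It was 1 to 2 when a replicate or an array was left out (1 without pair 2 or pair 3, each time with Bak1 kept and Aifm3 lost). The count of 1 member at the study's criteria was 0 without the replicate block and 0 with median scaling, and 0 to 2 with replicates or arrays left out (2 without pair 1, 0 without pair 2). The count of 1 pathway gene was 0 with a mean intensity of at least 100, 2 with median scaling, 2 with the mean of a gene's probe sets, 3 with an intensity trend and robust prior, and 0 to 2 with replicates or arrays left out (2 without pair 1, 0 without pair 3). Aifm3 was the 1 member nominal in the methods' paired t-test. Its nominal call was kept in 8 of 18 alternatives and lost in 10. The log2 fold change of Aifm3 was 0.39 without the replicate block and 0.35 with median scaling, not nominal in either. It was 0.37 to 0.41 with a replicate pair left out. Without crush replicates 1, 2 or 3 and no replicate block it was 0.49, 0.47 and 0.22, and without control replicates 1, 2 or 3 it was 0.27, 0.33 and 0.57, nominal for the last alone. Bak1, Aifm3 and Bbc3 were higher after crush in every alternative in which they were tested. Bcl2l10 became nominal after quantile normalization (log2 fold change 0.40), and in unpaired fits without crush replicate 1 (0.53) or control replicate 2 (0.51). Fits without a pair have fewer arrays, and the cause of the other changes was not tested. Bak1 kept its nominal call in 15 of 18 alternatives and Bbc3 in 12 of 17. Both probe sets were dim, and a part of the low signal in these changes was not tested.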

Other observations

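Hrk and Bmf, BH3-only genes that bind antiapoptotic members, had large differences on their brightest probe sets that did not pass the nominal threshold, and they are named here because of their values. Hrk, known for its induction in neurons deprived of trophic support, read 1452, 315 and 1322 in crush eyes 1 to 3, against 1591, 1453 and 1748 in control eyes 1 to 3, so all crushed eyes were below all control eyes and crush eye 2 was far below the other crushed eyes. The log2 fold change was -0.91 with 95% limits of -1.99 and 0.16, and the pair differences were -0.13, -2.21 and -0.40. Bmf, a sensor tied to the cytoskeleton, read 459, 944 and 1169 in crush eyes 1 to 3, against 489, 527 and 556 in control eyes 1 to 3. Its log2 fold change was 0.61 with 95% limits of -0.04 and 1.26, with the crushed eye lower in pair 1 and higher in pairs 2 and 3. Over the mean of its probe sets Bmf had 0.56 and was nominally higher (unadjusted p = 0.0427 from limma), while Hrk had -0.46 (unadjusted p = 0.138 from limma).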
